A study of Mus musculus with 3 samples.

Results

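The cells described here are the neutrophils of the mouse distal colon and anus during acute colitis and after recovery. They were taken as all cells that carry cluster number 11 in the deposited cell table, whose cell type name there is neutrophil, and they number 1966 of 37080 cells. Tissue came from wild-type C57Bl/6 mice bought at 6 weeks of age and was captured as 3 single-cell 3' libraries, each from 1 pool of 5 mice. The day 0 mice were untreated and histologically normal. The other mice drank 3% dextran sulfate sodium (DSS), a polymer that injures the gut lining, for 6 days. They were dissected at day 7, with severe colitis, or at day 42, when they were scored as recovered. Cells were freed with trypsin and cleared of dead cells by Annexin V selection, which removes cells that expose phosphatidylserine. With 1 pooled library per day there are no replicates, so day and library cannot be told apart and no difference between days was tested. Intervals are exact 95% intervals that cover counting error only.

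Neutrophils are short-lived white blood cells that are made in bone marrow, circulate for hours and enter injured tissue along gradients of chemokines read by receptors such as Cxcr2. They carry proteins packed in granules, whose genes are mostly read in the marrow and are largely silent in mature cells, and calprotectin, the S100a8 and S100a9 dimer that fills their cytosol. In tissue they make cytokines such as interleukin 1 beta and chemokines such as Cxcl2 that call in more neutrophils. In colitis they gather in the lamina propria, crypts and ulcers. They hold little RNA, so droplet methods capture fewer molecules from them than from most other cells.

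Neutrophils made up 5 of 11037 cells at day 0, 1513 of 14376 cells at day 7 and 448 of 11667 cells at day 42. These are shares of 0.0453% (0.0147% to 0.106%), 10.5% (10.03% to 11.04%) and 3.84% (3.498% to 4.205%). Among the immune annotations they made up 1.56%, 78.8% and 71.9% of cells. Neutrophils thus stood for most of the captured immune cells at both day 7 and day 42, and for almost none at day 0. Trypsin release, dead cell removal and the depth needed to keep a cell all act on these shares, and their part was not tested.

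The cells of day 42 were far shallower than those of day 7. A unique molecular identifier (UMI) marks 1 captured transcript, and the day 7 cells held between 513 and 17102 UMIs with a median of 2585. The day 42 cells held between 501 and 5136 UMIs with a median of 662, and the 5 day 0 cells between 805 and 986 with a median of 890. The median number of genes per cell was 787 at day 7 and 365 at day 42. The lowest total of any cell in the 3 libraries was 500 or 501 UMIs, and at day 42 67.9% of neutrophils lay under 750 UMIs, against 1.92% at day 7. At 2000 UMIs or more there were 70.3% of the day 7 and 0.893% of the day 42 neutrophils. The day 42 distribution therefore ran up against the lowest total kept in the files, and how many neutrophils lay beneath it was not analysed here. In all, 4200626 UMIs stood behind the day 7 levels and 335724 behind those of day 42.

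**Figure D1:**
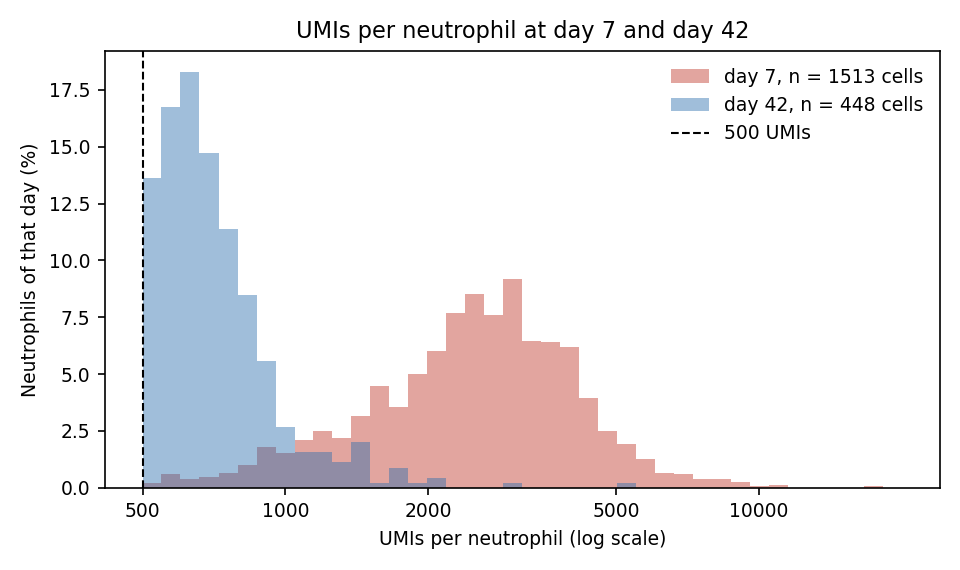
Histogram of UMIs per neutrophil (log scale) as a percentage of the neutrophils of day 7 (n = 1513) and day 42 (n = 448). The day 42 cells crowd just above the lowest total kept (500 UMIs, dashed line), while the day 7 cells centre on a median of 2585.

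Part of this gap was shared with other cells of the libraries and part was not. The median UMIs of day 42 cells came to 25.6% of the day 7 median in neutrophils, 38.1% in endothelial cells, 52.8% in fibroblasts, 57.0% in keratinocytes and 61.6% in T cells. In colonocytes it came to 146%. Neutrophils stood lowest of all annotations with at least 50 cells on both days. After each cell was thinned at random to 500 UMIs, the median day 42 neutrophil showed 293 genes and the median day 7 neutrophil 242, so at 1 depth the day 42 cells spread their UMIs over more genes. Mitochondrial UMIs had a median of 0.985% at day 7 and 0.549% at day 42, and 46 and 26 cells held more than 20%. The days shared 40 to 55 cell barcodes per pair of libraries, and 2 of the day 42 neutrophils had a barcode found at day 7.

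All 6 neutrophil markers were found at high levels in these cells, as the name of the cluster has it. At day 7, S100a9 and S100a8, which together form calprotectin, stood at 127202 and 89485 CPM, the UMIs of a gene per 1e6 UMIs of the neutrophils. Retnlg, a resistin-like protein of neutrophils, stood at 28957 CPM, Wfdc17 at 13503 CPM, Il1b at 11232 CPM and G0s2, an inhibitor of fat breakdown, at 8315 CPM. At day 42 the same genes stood at 66838 for S100a9, 37677 for S100a8, 5245 for Retnlg, 7473 for Wfdc17, 15778 for Il1b and 8721 CPM for G0s2. Of the day 7 cells 96.3%, and of the day 42 cells 92.6%, drew at least 5% of their UMIs from these 6 genes. All 5 of the day 0 cells had UMIs of S100a9, S100a8 and Il1b, with 112, 48 and 77 UMIs among their 4441, and 1 of them had Retnlg.

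Markers of most other cell types were at low levels. None of the 9 T or natural killer, 6 B or plasma, 7 mast or basophil, 6 eosinophil, 7 fibroblast and 7 endothelial markers reached 50 CPM on either day. Of 18 mononuclear myeloid markers 3 did, and the summed level of that list was 622 CPM at day 7 and 512 at day 42. Of 8 erythroid or platelet markers 5 reached 50 CPM, and that list summed to 1558 CPM at day 7 and 1051 CPM at day 42, led at day 7 by the haemoglobin gene Hbb-bs at 927 CPM. In the depth ranges used for the comparisons below, of cells with 500 to 1500 and with 700 to 1200 UMIs, that list ran the other way. Of its 5 genes 1 and 3 were higher at day 42 by a log2 ratio of at least 1 and none was lower, beside 3.81% and 6.17% of all genes higher in those ranges, with medians of 0.52 and 1.002. Hbb-bs stood at 93.5 CPM at day 7 and 684 CPM at day 42 in the wider range and at 145 and 1596 CPM in the narrower. Of 12 colonocyte markers 4 reached 50 CPM, their list summed to 219 and 620 CPM, and 2 of the 4 were higher at day 42 in each depth range, beside the same shares. Keratinocyte markers, which come from the most abundant cells of these libraries, summed to 2824 CPM at day 7 and 3116 CPM at day 42. That is 10.0% and 10.4% of their level in all other cells. At like depth 3 of 12 keratinocyte markers were lower at day 42 in each range, beside 7.26% and 16.1% of all genes, and none and 1 were higher. The medians were -0.38 and -0.59. The part of any of these lists in the results below was not tested.

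The promoters of 6 genes on which the following results turn are printed first, because pairs of them share the letters of a factor known to act on them. Each runs 5′ to 3′ on the strand of the gene, from 250 bases before to 50 bases after the start of transcription, from RefSeq on GRCm38.p6. S100a8 and S100a9 stand for the cytosolic store of the mature cell, and capitals mark the C/EBP letters TTNNGNAA on either strand. C/EBP factors drive granulocyte genes, and 40.7% of all 32851 promoters in the table hold these letters.
S100a8, chr3:90668821-90669120, plus strand: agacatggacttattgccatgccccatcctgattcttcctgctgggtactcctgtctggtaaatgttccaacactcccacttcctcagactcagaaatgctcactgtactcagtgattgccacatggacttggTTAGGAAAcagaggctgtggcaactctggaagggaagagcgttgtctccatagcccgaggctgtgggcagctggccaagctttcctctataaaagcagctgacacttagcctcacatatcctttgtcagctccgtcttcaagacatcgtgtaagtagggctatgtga
S100a9, chr3:90695672-90695971, minus strand: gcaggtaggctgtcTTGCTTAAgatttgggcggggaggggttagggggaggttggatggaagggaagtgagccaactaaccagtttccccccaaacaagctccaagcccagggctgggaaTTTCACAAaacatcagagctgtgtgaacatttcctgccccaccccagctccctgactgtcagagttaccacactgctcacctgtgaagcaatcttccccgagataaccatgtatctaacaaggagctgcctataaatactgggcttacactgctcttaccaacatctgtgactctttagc

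Cxcl2 and Cxcl3 stand for the chemokines, and their capitals mark matches to the NF-kB consensus on either strand, which 8.46% of all promoters hold. NF-kB turns on cytokine genes after interleukin 1, tumour necrosis factor or bacterial products reach a cell. The matched stretch is the same in both.
Cxcl2, chr5:90903649-90903948, plus strand: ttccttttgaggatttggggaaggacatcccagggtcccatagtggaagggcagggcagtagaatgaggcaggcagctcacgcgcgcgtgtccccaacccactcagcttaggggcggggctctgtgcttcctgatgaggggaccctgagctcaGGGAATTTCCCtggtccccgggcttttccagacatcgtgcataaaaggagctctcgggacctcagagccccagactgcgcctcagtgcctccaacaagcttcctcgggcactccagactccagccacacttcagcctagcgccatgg
Cxcl3, chr5:90785851-90786150, plus strand: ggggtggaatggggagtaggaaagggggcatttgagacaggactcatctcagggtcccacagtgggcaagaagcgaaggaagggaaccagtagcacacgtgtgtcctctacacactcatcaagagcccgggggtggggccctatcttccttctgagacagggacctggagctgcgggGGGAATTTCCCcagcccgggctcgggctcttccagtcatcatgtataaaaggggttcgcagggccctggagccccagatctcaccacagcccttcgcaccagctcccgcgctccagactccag

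Isg15 and Rsad2 stand for the interferon response, and their capitals mark the letters TTTCNNTTTC of the interferon-stimulated response element on either strand, which 3.44% of all promoters hold. Of the 18 interferon genes measured at 50 CPM or more in these cells 15 had a promoter in the table, and 6 of them held these letters (Isg15, Rsad2, Ifitm2, Ifitm3, Gbp2 and Cxcl10). A match of letters describes the sequence and shows no binding.
Isg15, chr4:156200769-156201068, minus strand: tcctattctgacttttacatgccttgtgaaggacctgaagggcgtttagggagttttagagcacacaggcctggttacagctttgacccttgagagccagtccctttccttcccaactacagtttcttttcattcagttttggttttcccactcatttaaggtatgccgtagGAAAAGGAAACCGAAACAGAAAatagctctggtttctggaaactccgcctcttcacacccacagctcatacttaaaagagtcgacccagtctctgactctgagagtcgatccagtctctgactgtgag
Rsad2, chr12:26456403-26456702, minus strand: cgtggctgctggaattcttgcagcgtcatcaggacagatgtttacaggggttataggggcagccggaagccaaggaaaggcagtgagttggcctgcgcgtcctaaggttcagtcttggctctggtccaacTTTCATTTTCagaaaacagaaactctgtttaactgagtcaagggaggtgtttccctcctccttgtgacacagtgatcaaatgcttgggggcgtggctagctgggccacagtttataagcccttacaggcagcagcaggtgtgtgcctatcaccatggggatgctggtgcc

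Set beside the other annotations of day 7, neutrophils led in a set of secreted and cytosolic proteins. The cluster was drawn from these same genes, so the values describe it and test nothing. Of 1768 genes at 50 CPM or more, 181 (10.2%) stood at least 2-fold above the highest of 9 other annotations on the log2 scale with 10 CPM added. Retnlg had the largest ratio. Its 28957 CPM compared with 456 CPM in the annotation for macrophages and antigen-presenting cells, 63.5 times as high. S100a9 stood 53.8 times above its next annotation, T cells at 2366 CPM, and G0s2 at 8315 CPM compared with 164 CPM in macrophages. S100a8, at 89485 CPM, compared with 2049 CPM in macrophages. Gm5483 stood at 1696 CPM and the stefin gene Stfa2l1 at 1298 CPM against 29.2 and 30.9 CPM at most elsewhere. Prok2, a secreted prokineticin, stood at 524 CPM against 8.92 CPM at most. Mrgpra2b, Asprv1, Ngp, Wfdc21 and Cxcr2 completed the 12 highest ratios. Cxcr2, the receptor for Cxcl1, Cxcl2 and Cxcl3, stood at 597 CPM in neutrophils and at 18.1 CPM in the next annotation.

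**Figure D2:**
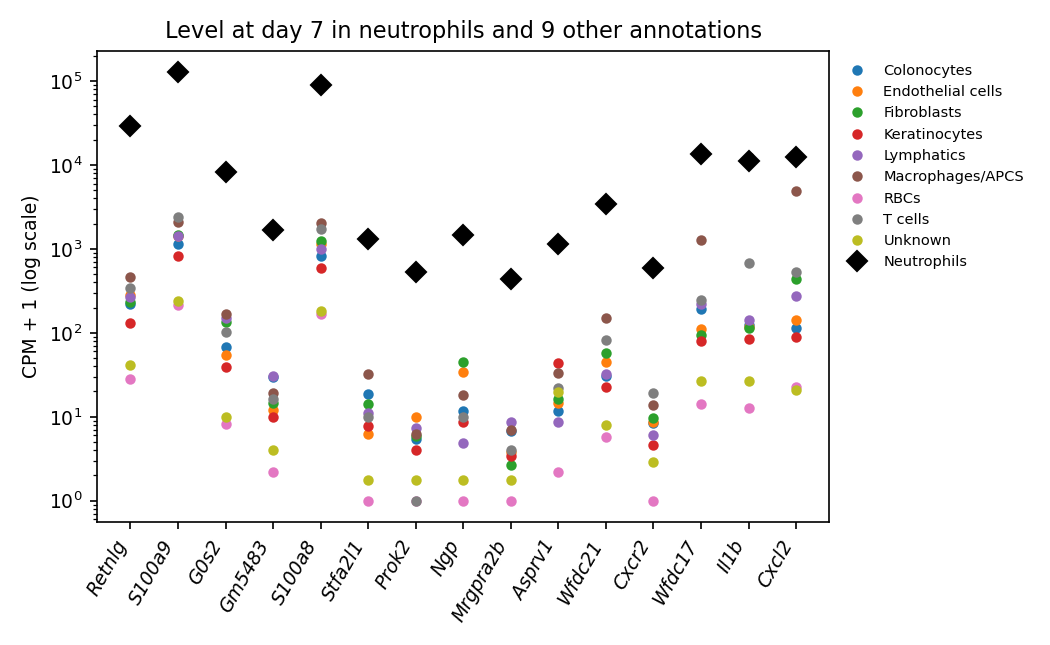
Level at day 7 (CPM + 1, log scale) of the 12 genes with the highest ratio of neutrophils to any other annotation, and of Wfdc17, Il1b and Cxcl2. Each diamond is the neutrophils and each dot another annotation; S100a9 at 127202 CPM is the highest point, and for Il1b the dot of macrophages, at 12398 CPM, lies behind the diamond at 11232 CPM.

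Other genes of neutrophil function were shared. Il1b stood at 11232 CPM in neutrophils and at 12398 CPM in macrophages, and Cxcl2 at 12525 CPM in neutrophils against 4929 in macrophages. Of all Il1b UMIs of the day 7 library 61.8% lay in neutrophils and 21.5% in macrophages. Ly6g, the surface protein by which neutrophils are commonly sorted, stood at 578 CPM in neutrophils and higher, at 1361 CPM, in colonocytes. Neutrophils held 85.3% of the day 7 library's Retnlg UMIs, 84.5% of its G0s2, 80.6% of its S100a9 and 79.9% of its S100a8 UMIs. After thinning to 500 UMIs, between 5.08% and 27.6% of the cells of the 8 other annotations measured so had an S100a9 UMI at day 7, and between 1.34% and 2.48% of those of 7 at day 42. For Retnlg those ranges were 2.11% to 13.1% and 0% to 0.326%. The neutrophil shares of 98.9% and 99.6% for S100a9 and of 91.1% and 67.2% for Retnlg lay well above them.

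Between day 42 and day 7 many genes differed in level. Of 2228 genes at 50 CPM or more on either day, 220 (9.87%) were higher at day 42 by a log2 ratio of at least 1, and 64 (2.87%) were lower by as much. The median gene stood at a log2 ratio of 0.36, while S100a8, S100a9 and Retnlg held a smaller part of all UMIs at day 42, so single ratios are read against 0.36. Since shallow and deep neutrophils of the same day also differed, most ratios are given beside their values in cells of like depth. The wider range of 500 to 1500 UMIs held 245 day 7 and 437 day 42 cells with medians of 1120 and 659 UMIs. The narrower range of 700 to 1200 UMIs held 132 and 159 cells with medians of 996 and 799. Where ratios at like depth are given, the wider range comes first. In the wider range the median gene stood at 0.01, 3.81% of 2494 genes were higher and 7.26% lower. In the narrower range 6.17% of 2674 genes were higher and 16.1% lower.

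Depth and expression were tied within day 7 alone. The day 7 cells were ordered by UMIs and cut into 4 groups of 376 to 380 cells. In the shallowest group, of 513 to 1832 UMIs, S100a9 stood at 75573 CPM, against 132246 CPM in the deepest group. Retnlg stood at 13024 and 32217 CPM in those groups, and Lcn2, the granule protein lipocalin 2, at 2928 and 8158 CPM. For Il1b the order was turned, with 17148 CPM in the shallowest group and 8456 CPM in the deepest. Cxcl2 stood at 17298 and 10126 CPM and Tnf, tumour necrosis factor, at 457 and 133 CPM. Csf1 and Il1rn were likewise lower in the deepest group than in the shallowest, while Ccl4 and Cxcl3 did not follow that order. Ccl4 stood at 572 CPM in the shallowest group and at 1162, 959 and 724 CPM in the next 3, and Cxcl3 at 820 CPM in the shallowest and 831 CPM in the deepest.

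**Figure D3:**
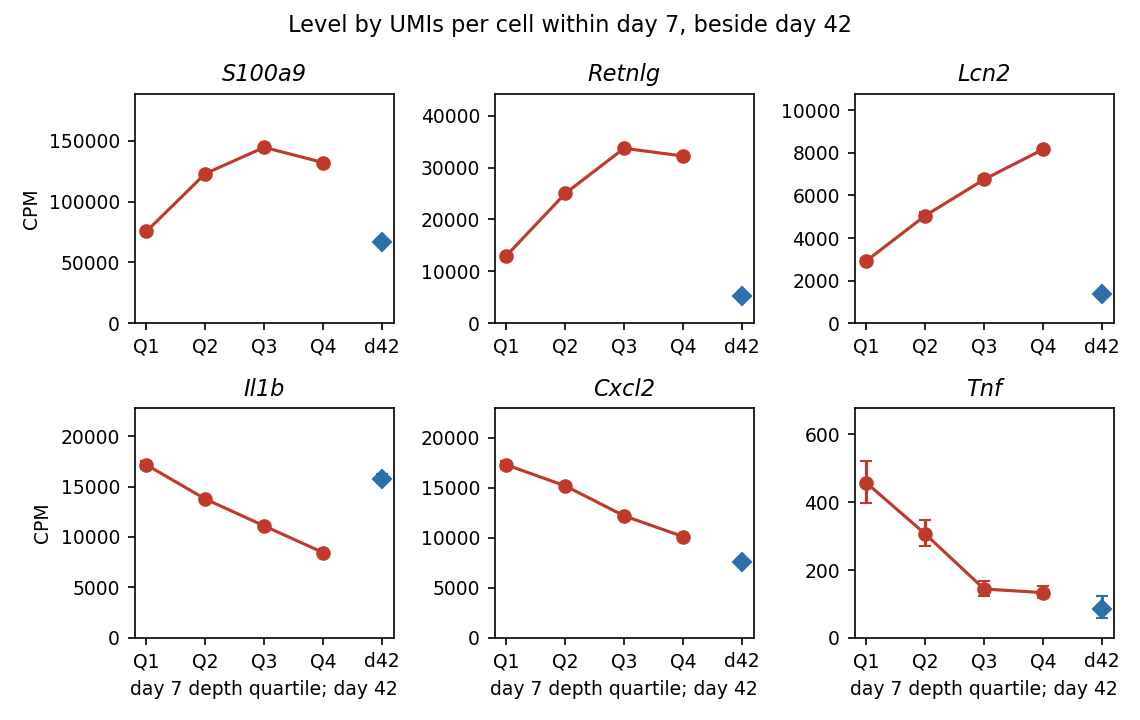
Level (CPM, exact Poisson 95% intervals) of 6 genes in the 4 depth groups of day 7 neutrophils ordered by UMIs per cell (Q1 the shallowest) and in all day 42 neutrophils (d42). S100a9, Retnlg and Lcn2 are lowest and Il1b, Cxcl2 and Tnf highest in Q1; the day 42 value lies below Q1 for every gene shown, Il1b included.

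The 12 lowest and the 12 highest ratios of day 42 to day 7 fell into groups by how they fared at like depth. Of the 12 lowest, Prok2, Cd177, Mmp8, Ccl3 and Cxcl3 stayed lower by a log2 ratio of at least 1 in both depth ranges. Of the 12 highest, Jaml, Atf3, Hspa4l and Isg15 stayed higher by as much in both. In the wider range 12 of the 12 lowest and 11 of the 12 highest kept their direction, and in the narrower range 11 and 9 did. Camp, the highest over all cells, had no UMI on either day in both depth ranges. In the narrower range the ratio changed sign for BC100530 among the lowest and for Cdc42ep3 and Atp2b1 among the highest.

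**Figure D4:**
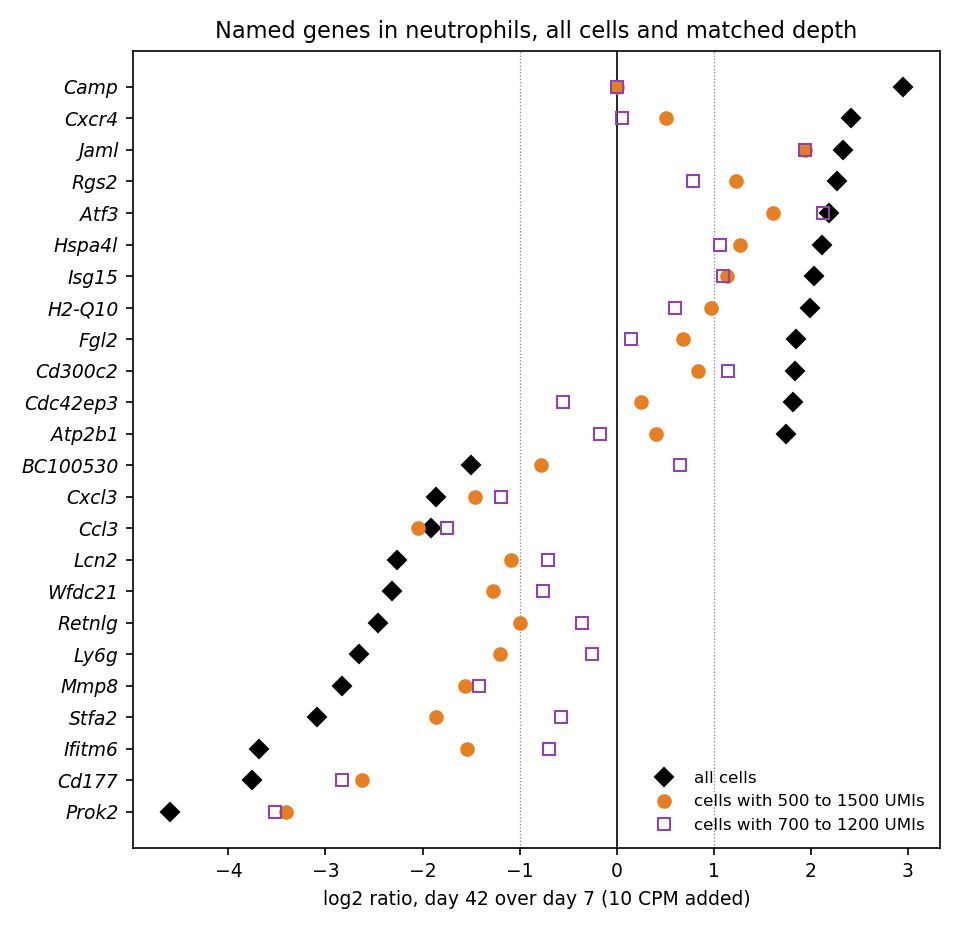
Log2 ratio of day 42 to day 7 (10 CPM added) of the 12 highest and 12 lowest genes in all neutrophils (diamonds), in cells with 500 to 1500 UMIs (circles) and in cells with 700 to 1200 UMIs (open squares); dotted lines mark -1 and 1. Prok2 stays near -3.5 in both depth ranges, while Ly6g moves from -2.65 to -0.25 and Cxcr4 from 2.42 to 0.05.

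Calprotectin and Retnlg, abundant transcripts of these cells, were lower at day 42 over all cells, while at like depth the S100a9 ratio turned in both ranges and the S100a8 ratio in the narrower one. S100a9 stood at 127202 CPM (126861 to 127544) at day 7 and 66838 CPM (65966 to 67718) at day 42, a log2 ratio of -0.93. In cells of 500 to 1500 UMIs it stood at 63507 and 67421 CPM, and in the narrower range it was higher at day 42 by 0.59. S100a8 went from -1.25 over all cells to -0.16 in the wider range, at 41859 CPM (41087 to 42642) and 37553 CPM (36875 to 38240), and to 0.30 in the narrower. Retnlg had a log2 ratio of -2.46 over all cells, -0.998 in the wider and -0.36 in the narrower range, where it stood at 9119 and 7104 CPM. The share of neutrophils with a Retnlg UMI after thinning to 500 UMIs was 91.1% at day 7 and 67.2% at day 42, while before thinning it was 93.7% and 73.7%. Among other annotations the same 3 genes, at far lower levels, were lower at day 42 by log2 ratios from -0.98 to -5.12.

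Most secondary granule genes were lower at day 42, over all cells and at like depth. These genes encode proteins that the cell stores while it matures in the marrow, and of 9 members 8 reached 50 CPM. Of these 6 were lower at day 42 and 1, Camp, was higher, beside 2.87% lower and 9.87% higher of all genes, with a median log2 ratio of -1.59 beside 0.36 over all genes. In the wider and narrower depth ranges 6 and 5 of them were lower, beside 7.26% and 16.1% of all genes, and the medians were -1.62 and -1.72. Ltf, lactoferrin, went the other way, with a ratio of 0.90 in the wider range from 8 and 20 UMIs. Several of the lower members rest on few molecules there, with 43 and 1 UMIs for Chil3, 20 and 3 for Ngp and 17 and 4 for Cybb. Cybb is also counted among the NADPH oxidase genes. Mmp8, neutrophil collagenase, stood at 1243 CPM (1210 to 1278) at day 7 and 167 CPM (126 to 217) at day 42. At 500 to 1500 UMIs it stood at 494 and 161 CPM. Cd177, a surface glycoprotein of neutrophil subsets, stood at 366 and 17.9 CPM over all cells and, from 35 and 4 UMIs, at 131 and 12.9 CPM in the wider range. Lcn2, which withholds iron from bacteria by binding their siderophores, stood at 6552 and 1352 CPM, with ratios of -2.27 over all cells and -1.08 and -0.71 at like depth. After thinning, 77.3% of day 7 and 31.7% of day 42 neutrophils had an Lcn2 UMI.

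Camp and Ngp, members of that list, lay in few cells. Camp, the cathelicidin precursor, had 515 UMIs at day 42 and all of them lay in 1 cell of 5136 UMIs, the deepest of that day. The same cell held 224 of the 227 Ngp UMIs of day 42 and all 16 UMIs of Elane, neutrophil elastase of the primary granules, and it had no Retnlg UMI. At day 7 the 15 cells richest in Camp held 63.1% of its UMIs, and their totals ran from 4020 to 8823 UMIs. Elane had no UMI in any day 7 neutrophil. Without the 10 cells with most UMIs of the gene on each day, the Camp ratio turned from 2.95 to -3.26. Ngp stood at 74.8 and 9.64 CPM in the wider depth range, from 20 and 3 UMIs. Of 7 primary granule genes, Serpinb1a alone reached 50 CPM, and 4 had no UMI at day 7.

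Prok2 had the lowest ratio of all. It had 2201 UMIs at day 7 and 4 at day 42, which is 524 CPM (502 to 546) and 11.9 CPM (3.25 to 30.5). After thinning, 17.3% of the day 7 and 0.893% of the day 42 neutrophils had a Prok2 UMI. In the narrower depth range it stood at 191 CPM (124 to 282) and, from 1 UMI, at 7.57 CPM (0.192 to 42.2). Day 42 lay below day 7 in each of these comparisons, and no other annotation had more than 8.92 CPM at day 7.

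The gelatinase granule and secretory genes, which are made later in maturation, did not share this pattern. Of 10 genes 9 reached 50 CPM, and 1, Olfm4, was lower and none higher by the 2-fold mark, beside 2.87% and 9.87% of all genes. At like depth 1 was higher in each range, beside 3.81% and 6.17%, and in the narrower 1 was lower, beside 16.1%. Their median was -0.46 over all cells and 0.26 and 0.52 at like depth. Slpi, a protease inhibitor, stood at 3653 and 3708 CPM, with ratios of 0.49 and 0.86 at like depth. Hp, haptoglobin, stood at 2269 and 1882 CPM over all cells, and at like depth it was higher at day 42, with ratios of 0.26 and 0.45. Mmp9, gelatinase B, stood at 1225 and 774 CPM, with ratios of -0.65 over all cells and -0.59 and -0.89 at like depth. Lyz2, lysozyme, stood at 1067 and 1159 CPM over all cells but at 434 and 1047 CPM in the wider depth range. The stefin A and other cytosolic proteins, inhibitors of cysteine proteases and calcium-binding proteins among them, had a median of -0.77 over all cells, with 4 of 9 lower and none higher, beside 2.87% and 9.87% of all genes. At like depth 3 were lower in the wider range and none in the narrower, beside 7.26% and 16.1%. That median was -0.59 in the wider and 0.42 in the narrower range, so no direction held. Stefin A genes are near-identical copies, and the split of UMIs among them is uncertain.

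**Figure D5:**
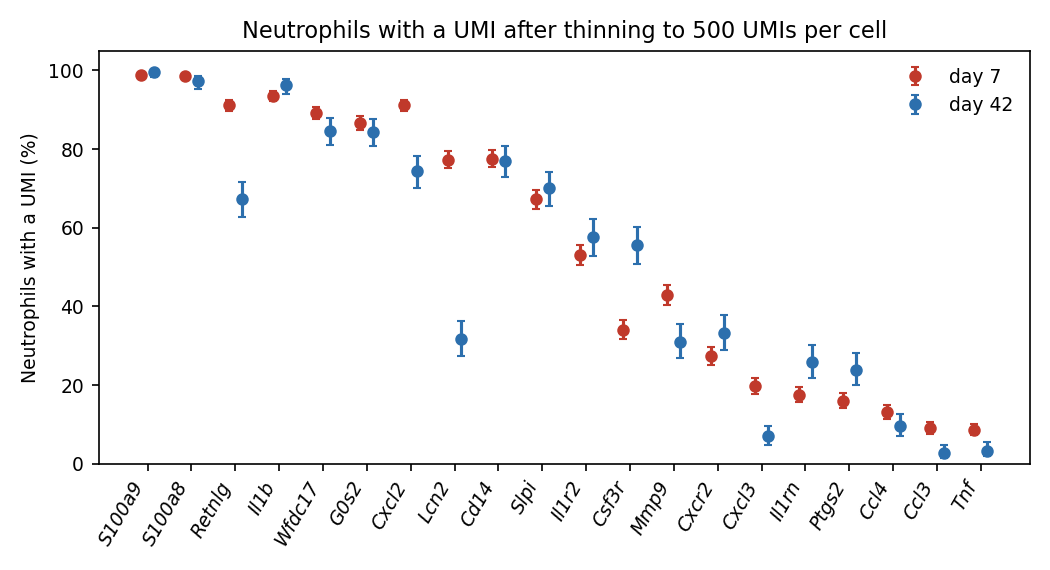
Percentage of neutrophils with at least 1 UMI of each gene after thinning every cell to 500 UMIs, at day 7 (n = 1513) and day 42 (n = 448), with exact Clopper-Pearson 95% intervals. Retnlg (91.1% and 67.2%), Lcn2 (77.3% and 31.7%) and Cxcl2 (91.2% and 74.3%) are less often seen at day 42, and Csf3r (34.1% and 55.6%) more often; at this thinning shares follow the composition of each cell, which moves with its depth before thinning.

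Cxcl2, Cxcl3, Ccl3 and Tnf were lower at day 42 over all cells and at like depth. Cytokine and chemokine genes carry the signals by which neutrophils recruit and activate other cells. Of 19 members 12 reached 50 CPM, and 4 of these were lower and 2 higher, beside 2.87% and 9.87% of all genes. At like depth 4 were lower in each range, beside 7.26% and 16.1%, and 1 and 2 were higher, beside 3.81% and 6.17%. The median was -0.14 over all cells and -0.33 and -0.34 at like depth. Cxcl2, which draws neutrophils through Cxcr2, stood at 12525 CPM (12418 to 12632) at day 7 and 7551 CPM (7260 to 7851) at day 42. At 500 to 1500 UMIs it stood at 18477 and 8009 CPM, so the log2 ratio was -0.73 over all cells, -1.20 in the wider and -1.10 in the narrower range. Cxcl3 stood at 912 and 244 CPM and at 740 and 263 CPM in the wider range. Ccl3, a chemokine for monocytes and lymphocytes, had ratios of -1.91, -2.04 and -1.75 in the same order. Tnf stood at 208 and 86.4 CPM over all cells and at 594 CPM (506 to 694) and 93.2 CPM (62.4 to 134) in the wider range. Its ratio went from -1.18 to -2.55 and -3.13. Ccl4 had ratios of -1.15, -0.53 and -0.26, and Ccl6 stood at 1684 and 1734 CPM with ratios of 0.04, 0.46 and 1.21. For Tnf and Cxcl2 the gap between the days was larger in cells of like depth than over all cells. Lower values at day 42 were not confined to neutrophils. The list's median was -1.70 in fibroblasts and -2.49 in T cells, the other annotations with enough genes for a median. After thinning, the share of cells with a Cxcl2 UMI was lower at day 42 in every other annotation compared on both days. In fibroblasts it was 12.3% and 1.35%, beside 91.2% and 74.3% in neutrophils. The difference between neutrophils and other annotations was not tested.

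Interleukin 1 beta did not go with Cxcl2, Cxcl3, Ccl3 and Tnf. Il1b was the most abundant cytokine of day 42, at 15778 CPM beside 11232 CPM at day 7, a log2 ratio of 0.49. At like depth the ratio was -0.10 and -0.15, with 17871 and 16632 CPM in the wider range. After thinning, 93.5% and 96.2% of the cells had an Il1b UMI. Il1rn, which blocks the interleukin 1 receptor, stood at 441 and 679 CPM, and its ratio of 0.61 over all cells became -0.20 and -0.43. Osm, oncostatin M, an interleukin 6 family cytokine that acts on stromal cells, stood at 108 and 235 CPM. It was higher at day 42 over all cells (1.06) and in both depth ranges (1.09 and 1.55), from 30 and 78 UMIs in the wider range. Csf1, the macrophage growth factor, had a ratio of 2.02 over all cells and of 0.06 and -0.65 at like depth.

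Within the library, the part of these transcripts that lay in neutrophils moved as well. Neutrophils held 71.9% of all Cxcl2 UMIs at day 7 and 67.5% at day 42. They held 51.7% and 12.1% of the Tnf UMIs and 30.3% and 3.08% of the Cxcl3 UMIs. For Il1b the part was larger at day 42, at 61.8% and 70.6%, and so it was for Ptgs2, at 23.9% and 31.9%. At day 42 keratinocytes held 59.2% of Tnf and 95.3% of Cxcl3. These parts depend on how many cells of each kind were captured and on their depth.

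Receptors were mostly close to the median gene. Of 15 chemoattractant and adhesion receptors 2, Cxcr4 and Cd44, were higher by the 2-fold mark and none lower, beside 9.87% and 2.87% of all genes, and their median of 0.33 was near the 0.36 over all genes. At like depth none was higher, beside 3.81% and 6.17%, and 1 was lower in each range, beside 7.26% and 16.1%. The medians were 0.014 and -0.081. Cxcr4, the receptor that holds neutrophils in marrow and is known to return on aged cells, stood at 60.9 CPM (53.7 to 68.9) at day 7 and 369 CPM (307 to 440) at day 42. Its level also followed depth, with 228 CPM in the shallowest group of day 7, and at like depth the ratio of 2.42 shrank to 0.51 and 0.05. Cxcr2 stood at 597 and 837 CPM, a ratio of 0.48 that became 0.01 and -0.17. Ccrl2, a chemerin-binding receptor, stood at 756 and 897 CPM, with ratios of 0.24 over all cells and -0.93 and -1.04 at like depth. Ccr1 stood at 497 and 1001 CPM, with ratios of 0.99, 0.70 and 0.55.

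Of 27 cytokine and pattern receptors 25 reached 50 CPM, and 2 were higher and none lower, which is near the 9.87% and 2.87% of all genes. The median was 0.30. The 2 were Csf3r, the receptor for granulocyte colony-stimulating factor, and Clec4n, dectin 2. Csf3r stood at 750 and 1671 CPM, and its ratio of 1.15 became 0.42 and 0.38 at like depth. The ratio of Clec4n turned from 1.97 to -0.11 and -0.93. Cd14, which hands bacterial lipopolysaccharide to its receptor, stood at 4336 and 4581 CPM, and Il1r2, the decoy receptor for interleukin 1, at 1570 and 2109 CPM. Tlr2, a receptor for bacterial lipoproteins, was higher at like depth, at 153 and 363 CPM in the wider range.

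Interferon genes were split. Interferons induce a set of antiviral genes through response elements such as those printed for Isg15 and Rsad2. Of 29 members 18 reached 50 CPM, and 7 were higher and 1, Ifitm6, lower at day 42, beside 9.87% and 2.87% of all genes. Their median of 0.40 was near the 0.36 over all genes. In the wider depth range 5 were higher and 1 lower, beside 3.81% and 7.26%. In the narrower range 5 were higher and 4 lower, beside 6.17% and 16.1%. Isg15, a ubiquitin-like modifier, stood at 177 CPM (165 to 190) at day 7 and 757 CPM (666 to 856) at day 42. At 500 to 1500 UMIs it stood at 359 CPM (291 to 438) and 800 CPM (704 to 906), a log2 ratio of 1.13, and the narrower range gave 1.10. After thinning 7.93% and 24.6% of the cells had an Isg15 UMI, and no other annotation compared on both days had an Isg15 ratio above 0.80. Rsad2, viperin, stood at 12.9 and 158 CPM, Isg20 at 70.7 and 215 CPM and Ifi27l2a at 74.5 and 250 CPM, and in both depth ranges each was higher at day 42. They were also few in UMIs, with 4 Rsad2 UMIs at day 7 in the narrower range.

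The most abundant interferon-inducible genes did not share this. Ifitm1 stood at 9014 and 8570 CPM and Ifitm2 at 6096 and 6273 CPM, with ratios between -0.07 and 0.27 over all cells and at like depth. Ifitm6, of the same family, stood at 3150 CPM at day 7 and 235 CPM at day 42, and its ratio of -3.69 shrank to -1.54 and -0.70. Cxcl10 and Oasl2 were higher over all cells, by 1.05 and 1.11, but stood at 0.00 and -0.10 in the wider range. In the narrower range Cxcl10 stood at -1.17, from 15 and 6 UMIs, and is among those counted lower there. Members of the Ifitm family share sequence, so the split of UMIs among them is uncertain.

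Glycolytic and hypoxia genes lay below the median gene at day 42. Of 22 members 16 reached 50 CPM, 3 were lower and 1, Ndrg1, was higher, beside 2.87% and 9.87% of all genes, with a median of -0.44 beside 0.36 over all genes. At like depth 5 of the 16 were lower in each range, beside 7.26% and 16.1%, and 1 was higher, beside 3.81% and 6.17%. The medians were -0.51 and -0.30. Hilpda, a hypoxia-induced lipid droplet protein, stood at 508 and 176 CPM and had ratios of -1.48, -1.57 and -1.53. Pgk1 and Tpi1, enzymes of glycolysis, had ratios of -1.14 and -1.10 over all cells and of -1.25 and -1.81 in the wider range. Gapdh stood at 2608 and 1400 CPM, with ratios of -0.89, -0.53 and -0.26. Hif1a itself, the oxygen-regulated factor, stood at 231 and 334 CPM. Lower medians were found in other annotations too, and the difference from them was not tested. The list's median was -0.51 in endothelial cells, -0.38 in fibroblasts, -0.36 in colonocytes, -0.35 in keratinocytes, -0.13 in cells named unknown and -0.04 in both T cells and lymphatics. For Hilpda they gave ratios between -0.88 and 0.14.

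Among enzymes of mediators, Nos2, which makes nitric oxide, had 303 UMIs at day 7 and 0 at day 42. Set against a floor of 3 UMIs over the day 42 cells, its 72.1 CPM was at least 8.07-fold higher at day 7. At 500 to 1500 UMIs it had 11 and 0 UMIs, so at that depth the gap rests on few molecules. Alox5ap, which serves leukotriene synthesis, stood at 3337 and 1519 CPM, with ratios of -1.13 over all cells and -0.47 and -0.24 at like depth. Hdc, which makes histamine, stood at 1660 and 2702 CPM, and its ratio of 0.70 became 0.04 and -0.25. Ptgs2, cyclooxygenase 2, stood at 374 and 754 CPM, and its ratio of 0.99 became -0.66 and -1.42. Of 8 genes of this list at 50 CPM or more 2 were lower and none higher, beside 2.87% and 9.87% of all genes. The median was 0.49 beside 0.36 over all genes, and -0.16 and -0.18 at like depth. The NADPH oxidase genes, whose product makes the oxidative burst, had 1 of 6 lower and none higher, beside 2.87% and 9.87% of all genes. Their median was -0.16 beside 0.36, and -0.021 and -0.16 at like depth. That 1 was Cybb, the membrane subunit, with 85.2 and 29.8 CPM from 358 and 10 UMIs. Cyba, its partner in the membrane, stood at 1289 and 1046 CPM.

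Genes of NF-kB feedback lay near the median gene over all cells and genes of survival little above it, and both lay below it at like depth. The NF-kB list, genes that this factor turns on and that in part restrain it, had 2 of 18 higher and none lower, beside 9.87% and 2.87% of all genes, with a median of 0.46 beside 0.36. At like depth none was higher, beside 3.81% and 6.17% of all genes, and 2 and 3 were lower, beside 7.26% and 16.1%. That median became -0.38 and -0.47. Nfkbia, the inhibitor of NF-kB, stood at 3168 and 4760 CPM over all cells, and its ratio of 0.59 became -0.41 and -0.45. Gadd45b had ratios of 1.53, -0.20 and -0.48. In the survival list 4 of 13 were higher and none lower, beside 9.87% and 2.87% of all genes, with a median of 0.50, which became -0.31 and -0.49. At like depth none was higher, beside 3.81% and 6.17%, and 1 and 2 were lower, beside 7.26% and 16.1%. Gadd45b and Birc3 are members of both lists. Mcl1, on which neutrophil survival depends, stood at 2145 and 3077 CPM and had ratios of 0.52, 0.02 and -0.15. Bcl2a1b, Bcl2a1d and Bcl2a1a, near-identical copies whose UMIs cannot be assigned with certainty, had ratios of 1.05, 1.20 and 1.08 over all cells and between -0.26 and -1.18 at like depth.

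The transcription factor list had 5 of 23 higher and none lower, with a median of 0.78. The list of genes that tissue dissociation is known to induce had 4 of 19 higher and none lower, with a median of 0.72. Of all genes 9.87% were higher and 2.87% lower, with a median of 0.36. Both lists hold Jun, Junb, Jund, Fos, Fosb, Atf3, Egr1, Nr4a1 and Btg2. At like depth 1 gene of each list was higher in each range, beside 3.81% and 6.17% of all genes. None was lower in the wider range, beside 7.26%, and 2 and 1 were lower in the narrower, beside 16.1%. The medians of the lists became 0.10 in the wider range and -0.13 and -0.14 in the narrower. Cebpb, a C/EBP factor of emergency granulopoiesis, stood at 4443 and 6669 CPM, with ratios of 0.58, 0.26 and 0.13. Junb stood at 1634 and 2982 CPM, and its ratio of 0.86 became -0.03 and -0.18. Atf3, a stress-induced factor, was apart from these, at 42.6 CPM (36.6 to 49.3) and 229 CPM (181 to 287) over all cells and 71.0 and 238 CPM in the wider range. Atf3 ratios in the 7 other annotations compared were also above 0, from 0.34 in colonocytes to 1.48 in T cells.

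Jaml, Hspa4l and Rgs2, among the 12 highest ratios, were also higher at day 42 in both depth ranges. Jaml, an adhesion molecule used in passage across epithelium, stood at 42.1 CPM (36.2 to 48.8) and 253 CPM (202 to 313). In the wider range it stood at 63.6 and 273 CPM, from 17 and 85 UMIs, and both depth ranges gave a log2 ratio of 1.94. Its ratios in other annotations lay between -0.25 and 0.37. Hspa4l, a heat shock protein, stood at 47.4 and 238 CPM, with ratios of 2.11, 1.27 and 1.07. Rgs2, a brake on G protein signalling, stood at 64.5 and 349 CPM, with ratios of 2.27, 1.23 and 0.79, and H2-Q10, Fgl2 and Cd300c2 had ratios between 0.15 and 1.15 at like depth.

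Cytoskeletal genes had few members past the 2-fold mark. Of 20 genes of actin and migration 1, Capg, was lower and none higher, beside 2.87% and 9.87% of all genes. The median was 0.08 beside 0.36 over all genes, and 0.10 and 0.22 at like depth. Actb stood at 12193 and 11563 CPM and Tmsb4x at 18524 and 20398 CPM. Among lysosome and iron genes Fth1, the ferritin heavy chain, stood at 28027 and 17455 CPM and Ftl1, the light chain, at 2644 and 4840 CPM. For these the ratios were -0.68 and 0.87 over all cells and -0.36 and 0.37 in the wider range, and the median of 15 genes was 0.21 beside 0.36, with 1 higher and none lower beside 9.87% and 2.87% of all genes. That median was -0.11 and 0.0032 at like depth, with 2 lower in each range beside 7.26% and 16.1%, and none and 1 higher beside 3.81% and 6.17%.

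Neutrophils also varied among themselves, in abundant markers and in chemokines. At a common 500 UMIs the variance of the haemoglobin gene Hbb-bs at day 7 was 132 times its mean, above that of the neutrophil genes, and 96.1% of its UMIs lay in 10 cells. At the same depth the variance of counts among day 7 cells was 13.2 times the mean for S100a9, 9.80 times for Fth1, 9.78 times for S100a8, 9.41 times for Ccl4, 9.11 times for Cxcl2 and 8.07 times for Retnlg, beside a median of 1.10 over 584 genes. Counting alone gives about 1. At day 42 it was 11.8 times for S100a9, 8.61 times for Cxcl2 and 4.26 times for Retnlg. A few cells carried much of Ccl4, with 26.4% of its day 7 UMIs in 10 of the 1513 cells, while 10 cells held 2.26% of the S100a9 UMIs.

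The same counts showed weak negative correlations of calprotectin and Retnlg with Il1b and Cxcl2 in day 7 cells. Across the 1513 cells S100a8 and S100a9 had a correlation of 0.88 and S100a8 and Retnlg of 0.68, whereas Retnlg and Il1b had -0.31 and Il1b and Cxcl2 had 0.51. Across the 448 day 42 cells these values were 0.83, 0.32, -0.13 and 0.38. With Il1b, S100a8 and S100a9 had -0.27 and -0.23 at day 7 and -0.14 and -0.15 at day 42. With Cxcl2 they had -0.17 and -0.15 at day 7 and -0.06 and -0.08 at day 42. The points are cells of 1 library each and share its free RNA, and with a fixed total a very abundant transcript leaves fewer counts to the others. Calprotectin, Retnlg, Il1b and Cxcl2 also moved with UMIs per cell within day 7, and the part of depth in these correlations was not tested.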

How the data were processed

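Single-cell RNA was measured in 3 libraries, 1 per day. The values the authors deposited are raw counts of UMIs per gene and cell, made with Cell Ranger 3.0.2 on mm10 per the submitters' processing notes, with no normalization. The deposited size factor column is a ratio of each cell's total to their geometric mean, and the deposited map coordinates are scores that were not used here. Filters on cells were not given in the sources used here. Cell types are the authors' deposited annotation. UMIs were summed per day and annotation, expressed as CPM, and days were compared as log2 ratios with 10 CPM added. With 1 library per day no test was possible and no p-value is given; a 2-fold mark (log2 of 1) over genes at 50 CPM or more stands in its place. Levels carry exact Poisson and shares exact Clopper-Pearson 95% intervals, and the floor for no UMI is 3 counts. UMIs count molecules and not amplified reads, and the intervals omit variation between mice.

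The text names the 12 highest and 12 lowest ratios of day 42 to day 7 and the 12 highest ratios to other annotations at day 7, among genes at 200 CPM or more, the 8 genes of widest spread, and list members by abundance. Other list members, such as Tnf, Ccl3, Osm, Tlr2, Nos2, Rsad2 and Csf3r, were named after their values were seen. These rules left out genes of mitochondria, ribosomes, haemoglobins and immunoglobulins and the sex-linked Xist and Y genes. Hbb-bs is named outside them, after its values were seen. Members and lists were chosen with earlier results of these data known. By its own threshold Scrublet called 0 of the 14376 day 7 cells as doublets, so its calls could not be used in that library, and it called 3 day 42 neutrophils. In the top 5% of its scores were 31 day 7 and 3 day 42 neutrophils, and none was removed. The ratio and thinning code was tested on simulated data. Alternatives covered scaling, added CPM, minimum level, depth ranges, thinning, free RNA, doublets, mitochondrial cells and leading cells. Python 3.11.15, numpy 2.4.6, scipy 1.17.1 and scanpy 1.11.5 were used.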

Additional observations from a re-analysis of the deposited data

How the results depend on the processing

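No paired analysis was possible because each day had 1 library. Over the shares, depths, percentages of genes and list medians, 261 alternative values stayed the same by the rule set, 52 moved and 25 changed sign. The rule was an interval for shares, depths and list medians and a set fold of the main value for percentages of genes. Changes of sign were not counted for small list medians. The actin median of 0.08, at -0.39, -0.32 and -0.11 under other scalings, is thus among those that moved. Over the ratios, detection and spread of single genes, 807 stayed so, 513 moved and 16 changed sign from a ratio past the 2-fold mark. The cause of these changes was not tested. Alternatives of spread were entered as moved by rule, and those of ratios to other annotations as moved or changed in sign. For the secondary granule list the interval ran from -3.75 to 2.95, so its alternatives could hardly count as moved. The counts therefore do not measure robustness. The share of neutrophils became 11.99% at day 7 without cells above 20% mitochondrial UMIs, 11.2% when cells were chosen by at least 5% marker UMIs, and 78.8% and 71.9% of immune cells at day 7 and day 42. Without mitochondrial and ribosomal protein genes the median UMIs were 2422 and 615. Genes higher and lower by the 2-fold mark were 2.57% and 7.82% with median-of-ratios size factors, 3.11% and 6.82% with those from genes at 50 CPM or more, 6.12% and 4.39% with totals without calprotectin, 2.87% and 1.66% with 50 CPM added, 3.81% and 7.26% at 500 to 1500 UMIs, 6.17% and 16.1% at 700 to 1200 UMIs, 19.2% and 4.52% with free RNA subtracted at double weight, 3.73% and 11.7% without the 10 leading cells per gene, 2.56% and 0.943% with no minimum level, and 6.19% lower among cells chosen by markers. The size factors shifted all ratios by 0.48 and 0.40.

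Among list medians, cells chosen by markers gave -0.50 for stefin A, 0.51 for cytokine receptors, 0.18 for cytokines, 0.084 for NADPH oxidase and 0.26 for actin. Size factors gave -0.89 for gelatinase granules, -0.13 for chemoattractant receptors, -0.15 for cytokine receptors, 0.0019 for NF-kB, -0.056 for interferon, -0.39 for actin, -0.26 for lysosome, 0.35 for transcription factors and 0.25 for dissociation. Those from genes at 50 CPM or more gave, in the same order without interferon, -0.83, -0.057, -0.076, 0.076, -0.32, -0.18, 0.42 and 0.33. Totals without calprotectin gave 0.115 for cytokine receptors and -0.11 for actin, and 50 CPM added gave 0.26 for cytokine receptors. Cells of 500 to 1500 UMIs gave 0.26 for gelatinase granules, 0.10 for cytokine receptors, -0.16 for lipid mediators, -0.38 for NF-kB, -0.31 for survival, -0.11 for lysosome and 0.10 for both transcription factors and dissociation. Cells of 700 to 1200 UMIs gave 0.42 for stefin A, 0.52 for gelatinase granules, -0.081 for chemoattractant and -0.043 for cytokine receptors, -0.18 for lipid mediators, -0.47 for NF-kB, -0.49 for survival, 0.22 for actin, -0.13 for transcription factors and -0.14 for dissociation. Leaving out the 10 leading cells per gene gave -2.54 for stefin A, -0.74 for gelatinase granules, 0.048 for cytokine receptors, 0.038 for NF-kB, -0.30 for lysosome and 0.54 for transcription factors. Thinning to 500 UMIs gave 0.20 for cytokine receptors and 0.58 for transcription factors, and a minimum of 200 CPM gave -0.26 for lysosome.

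Of 80 single genes checked 50 were past the 2-fold mark over all cells. Counting genes of any size, 14 changed sign among cells with 500 to 1500 UMIs and 26 among cells with 700 to 1200 UMIs. Those past the mark that did so were as follows. At 500 to 1500 UMIs Bcl2a1a stood at -0.60, Bcl2a1b at -0.32, Bcl2a1d at -0.26, Clec4n at -0.11 and Gadd45b at -0.20. At 700 to 1200 UMIs they stood at -1.18, -0.49, -0.40, -0.93 and -0.48, with Atp2b1 at -0.17, Cdc42ep3 at -0.55, Csf1 at -0.65, BC100530 at 0.65 and S100a8 at 0.30. Camp stood at -3.26 without its 10 leading cells. The range of 700 to 1200 UMIs, the size factors over genes at 50 CPM or more, the totals without calprotectin and the doubled free RNA were chosen after seeing the data. Depth limits these values. Day 42 rests on 335724 UMIs from cells near the lowest total kept, and genes under about 50 CPM there rest on fewer than 20 UMIs.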

Other observations

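The 5 neutrophils of day 0 are too few for levels, and their counts are given as they stand. Of their 4441 UMIs 112 were S100a9, 92 Fth1, 84 Srgn, 77 Il1b, 48 S100a8, 43 Cxcl2 and 39 G0s2. Retnlg had 5 UMIs, all in 1 cell, and Wfdc17 none. Csf1 had 19 and Ptgs2 had 15 UMIs, each in 3 cells. C1qa, of macrophages, and Cd3e, of T cells, had none, and Krt14, of keratinocytes, had 1.

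Ribosomal protein and mitochondrial transcripts, which were kept out of the named genes, held a larger part of neutrophil UMIs at day 42. The 95 ribosomal protein genes made up 4.82% of UMIs at day 7 and 6.06% at day 42, with 75 of 81 measured members above a ratio of 0. Most of all genes lay above 0 as well, with a lower quartile of 0.03. The median of the ribosomal protein genes was 0.30, below the 0.36 over all genes. The 13 mitochondrial genes made up 3.24% and 5.45%, with a median ratio of 0.83, while in the other annotations compared that median lay between -0.17 and 0.21. The typical neutrophil had less mitochondrial RNA at day 42 (a median of 0.549% against 0.985%), and 26 of its 448 neutrophils held more than 20%.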
